A study of Homo sapiens with 4 samples.

Results

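The genes described here are 36 genes of autophagy and the lysosome, taken as all probe sets whose symbol in the platform annotation was on the list. All 36 were measured, each by 1 probe set, among 17687 named genes. RNA came from DU145, a human prostate cancer cell line that does not depend on androgen, exposed for 48 h in medium with serum. The arrays held No.10-3 at 5 µM, C-30 at 0.5 µM, C-30 at 2 µM and vehicle, with 1 array for each. Both compounds are labelled as inhibitors of PSF, the RNA-binding protein encoded by SFPQ, and the series title places the line among castration-resistant cancers. Without replicates the differences carry neither an error nor a p-value, and they describe only these 4 arrays. Each difference against vehicle rests on the same vehicle array, so the 3 sets of differences are not independent of each other. Autophagy also runs largely through changes in protein location, lipidation and breakdown, which a transcript array does not measure.

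In autophagy a double membrane grows around cytoplasm, closes into an autophagosome and fuses with the lysosome, where hydrolases digest the content. The ULK1 kinase complex starts the process, the BECN1 and ATG14 lipid kinase complex marks the membrane, ATG9A and ATG2 proteins supply lipid, and a conjugation system of ATG proteins attaches LC3 and GABARAP proteins to the membrane. Receptors such as the SQSTM1 product p62 bind cargo to these proteins, and the transcription factors TFEB and TFE3 raise many lysosomal genes. DU145 is known to lack the normal ATG5 protein, a part of the conjugation machinery, because its ATG5 transcripts are spliced abnormally, so that LC3 lipidation is impaired in this line. That property limits it as a model of autophagy and is background, not a result of these arrays.

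Signals are taken as log2 values, which was inferred from their range and the usual output of RMA, and folds hold only on this scale. A gene's level can be compared between arrays but not with that of another gene. Negative controls, 612 probe sets taken as such by their identifiers alone, had a 95th percentile of 7.06 to 7.32 on the 4 arrays. This percentile is called the background level. By that measure 19 of the 36 members were above background on all 4 arrays, 6 on some and 11 on none. On a single array 22 or 23 members were above it, where 30.5% to 33.9% of all named genes were. The 11 were ULK2, RB1CC1, UVRAG, ATG2B, ATG4A, ATG5, ATG10, ATG16L1, WIPI1, GABARAPL2 and TFEB. A difference was counted only where the higher of its 2 signals reached the floor of 5.56, the median signal of named probe sets, which lies under the background level. ULK2, ATG4A, ATG16L1 and TFEB stayed under this floor on every array, RB1CC1 stayed under it in the comparison of C-30 at 0.5 µM with vehicle, and ATG10 and WIPI1 did so in that of C-30 at 2 µM with vehicle. The negative controls themselves differed between arrays with a robust SD (the median absolute deviation, scaled) of 0.83 for No.10-3, 0.83 for 0.5 µM C-30 and 0.91 for 2 µM C-30, each against vehicle, so a log2 difference near 1 between signals within background is of the size seen in negative controls. The 63 ERCC spike probe sets had robust SDs of 0.13, 0.17 and 0.27 in the same comparisons. Among genes above background on both arrays of a comparison it was 0.43, 0.48 and 0.57, a spread that holds any response as well as noise.

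The epithelial markers KRT8, KRT18, KRT19 and EPCAM were above background on all 4 arrays and CDH1 on none. The 3 measured androgen-dependent markers, the 3 endothelial and the 4 fibroblast markers were above background on no array, and of 5 leukocyte markers only CD68, which encodes a lysosomal membrane glycoprotein, was above it, at 9.50 with No.10-3, 8.55 and 8.79 with 0.5 and 2 µM C-30, against 8.43 with vehicle. The summed log2 signals of the epithelial markers were 50.0 with No.10-3, 48.6 and 45.4 with 0.5 and 2 µM C-30, against 47.2 with vehicle.

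**Figure D1:**
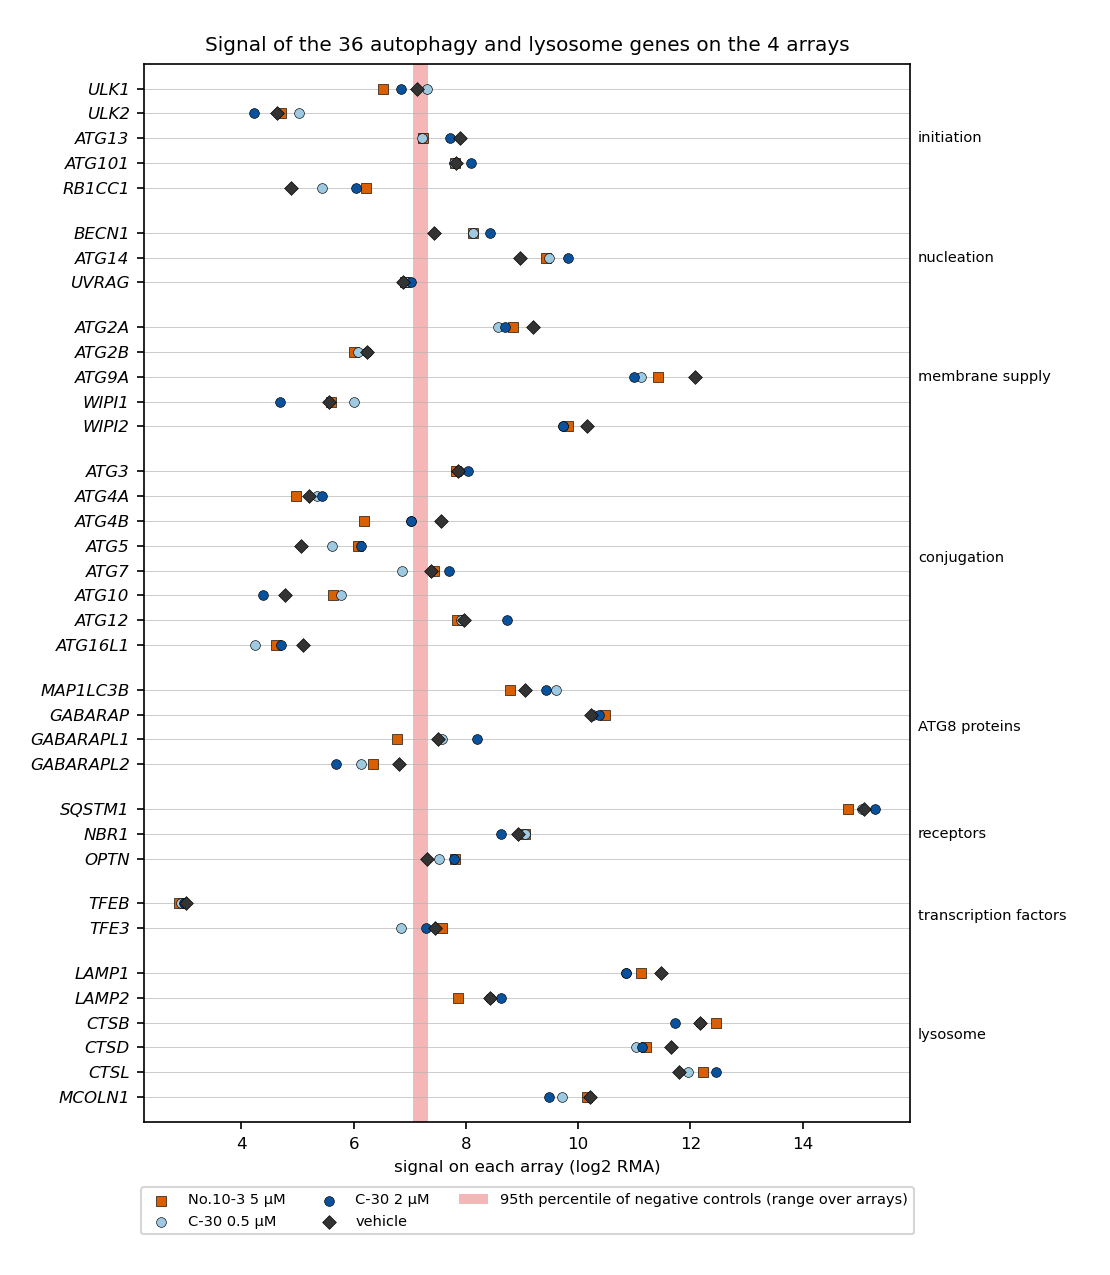
Log2 RMA signal (x axis) of each of the 36 genes (rows, grouped by role) on the 4 arrays, 1 point per array. The pink band spans the 95th percentile of the negative controls, 7.06 to 7.32, and 11 genes lie under it on all 4 arrays.

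The members were divided between higher and lower signals with either compound. With No.10-3, 14 of the 32 members past the floor were higher and 18 lower than with vehicle, where 54.0% of all genes past the floor were higher and 45.9% lower. Their median log2 difference was -0.04, against 0.05 over all 9219 genes. At 2-fold, a log2 difference of 1, 2 members were higher (4.36% of all genes) and 1 was lower (1.32% of all genes). The 2 higher ones, RB1CC1 and ATG5, were within background on every array. The lower one, ATG4B, was above it with vehicle alone. At 1.5-fold, 4 members were higher (14.8% of all genes) and 5 were lower (8.34% of all genes). Shares of 12.5% and 15.6% of the members stood beside these, from few genes.

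With C-30 at 0.5 µM no member passed 2-fold either way, where 3.40% of 9267 genes were higher and 2.77% lower. ATG10, within background, was closest at 0.99 and passed it after centring of the arrays, at 1.02. At 1.5-fold 2 of 31 members were higher (12.2% of all genes) and 7 were lower (13.4% of all genes). With C-30 at 2 µM 2 of 30 members were 2-fold higher (4.67% of 9319 genes) and 2 were 2-fold lower (6.15%). RB1CC1, ATG5 and GABARAPL2 of these 4 were within background on every array, and ATG9A was above it on every array. At 1.5-fold 7 members were higher (15.1% of all genes) and 4 were lower (18.5%). The members' median was -0.0026 at 0.5 µM and 0.14 at 2 µM, against -0.04 and -0.06 over all genes. At 0.5 µM 15 members were higher (46.9% of all genes) and 16 lower (53.1%), and at 2 µM 17 were higher (46.4%) and 13 lower (53.6%).

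Few members lay outside the middle 95% of all genes past the floor. With No.10-3 that middle range was -0.86 to 1.17, with RB1CC1 above it and ATG4B below it. It was -1.03 to 1.10 with 0.5 µM C-30 and -1.30 to 1.17 at the higher dose, and no member was outside either range. ATG9A had a lower difference than all but 3.2% of genes at 0.5 µM and all but 4.5% at 2 µM. These shares place single genes among all genes and carry no error.

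**Figure D2:**
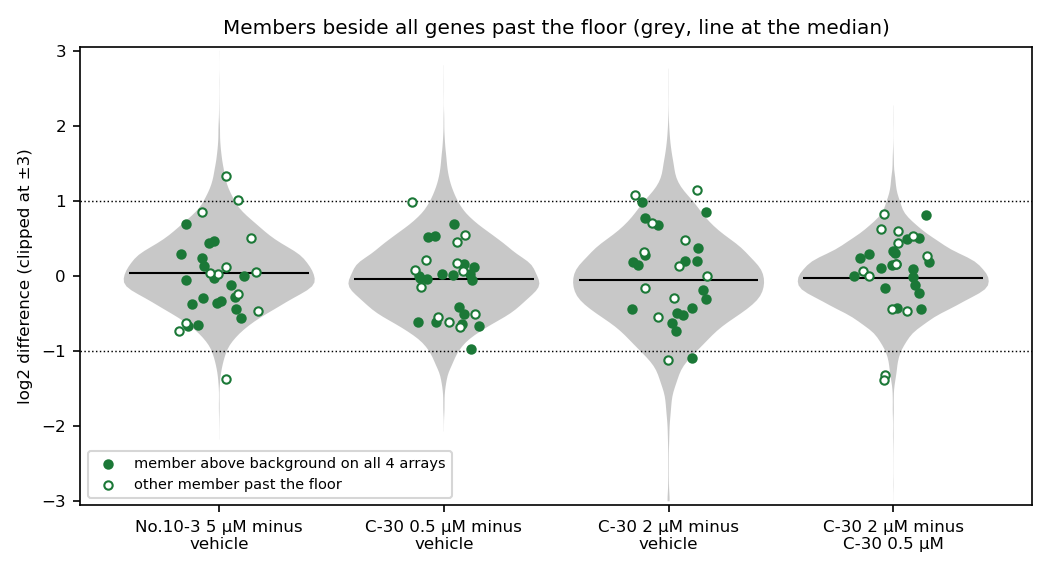
Log2 differences (y axis) of members past the floor in each comparison, beside the distribution over all genes past the floor in grey with a line at its median. Filled points are the 19 members above background on all 4 arrays, and dotted lines mark 2-fold; most members lie inside the body of the grey distribution.

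The initiation genes encode the ULK kinase complex, which receives signals of nutrient lack. ULK1 (chromosome 12, 131894622 to 131923150 in GRCh38.p14), the kinase, had signals of 6.51 with No.10-3, 7.31 and 6.84 with 0.5 and 2 µM C-30, against 7.13 with vehicle. It was lowest with No.10-3, at -0.62, and above background only with C-30 at 0.5 µM. ATG13 (chromosome 11, 46617553 to 46674518), the regulatory subunit that binds ULK1, had signals of 7.24 with No.10-3, 7.22 and 7.71 with 0.5 and 2 µM C-30, against 7.89 with vehicle. It was lower on each treated array, at -0.65, -0.67 and -0.18, although the No.10-3 and C-30 0.5 µM signals were close to the background level. ATG101, which stabilises ATG13, had signals of 7.81 with No.10-3, 7.79 and 8.09 with 0.5 and 2 µM C-30, against 7.82 with vehicle. It differed from vehicle by at most 0.27. RB1CC1, the gene of the scaffold FIP200, had signals of 6.21 with No.10-3, 5.44 and 6.03 with 0.5 and 2 µM C-30, against 4.89 with vehicle. The vehicle array was the lowest, but all 4 signals were within background, so the differences of 1.33 and 1.15 with No.10-3 and C-30 at 2 µM are inexact. ULK2, the paralogue of ULK1, lay between 4.23 and 5.02 and was not counted.

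Among genes of the lipid kinase complex, BECN1 and ATG14 were higher on each treated array. BECN1 (chromosome 17, 42810132 to 42824282) encodes Beclin 1, the scaffold of that complex. Its signals were 8.12 with No.10-3, 8.13 and 8.43 with 0.5 and 2 µM C-30, against 7.44 with vehicle. The vehicle signal lay just above background and the 3 treated arrays were all higher, by 0.69, 0.70 and 0.99. ATG14 (chromosome 14, 55366391 to 55411830), the subunit that directs the complex to autophagy, had signals of 9.43 with No.10-3, 9.48 and 9.81 with 0.5 and 2 µM C-30, against 8.96 with vehicle. Again the vehicle array was the lowest, with differences of 0.46, 0.52 and 0.85. At 2 µM of C-30 BECN1 and ATG14 were higher than at 0.5 µM by 0.29 and 0.34. UVRAG, the subunit of the alternative complex of the endosome, was within background at 6.91 with No.10-3, 6.95 and 7.02 with 0.5 and 2 µM C-30, against 6.89 with vehicle. It differed from vehicle by at most 0.14. The ATG14 and BECN1 differences fell inside the middle 95% of all genes in each comparison, and with 1 vehicle array a low vehicle value would raise all 3 differences together.

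Membrane supply genes above background were lower on each treated array. ATG9A (chromosome 2, 219219380 to 219229636), the lipid scramblase of the vesicles that seed the autophagosome, had signals of 11.43 with No.10-3, 11.12 and 11.00 with 0.5 and 2 µM C-30, against 12.09 with vehicle. The vehicle array was the highest and the C-30 arrays the lowest, with differences of -0.66, -0.97 and -1.09. Among members above background on all 4 arrays it was the only one past 2-fold against vehicle as deposited, and this call depended on the scaling. With C-30 at 2 µM, ATG9A stood at -0.92 after quantile normalization and -0.94 after the lowess correction on signal, both short of 2-fold, while BECN1, at 0.99 as deposited, passed it at 1.03 and 1.04. ATG2A (chromosome 11, 64894546 to 64917209), which bridges membranes and carries lipid, had signals of 8.83 with No.10-3, 8.56 and 8.70 with 0.5 and 2 µM C-30, against 9.20 with vehicle. It was lower, at -0.37, -0.64 and -0.50. WIPI2 (chromosome 7, 5190233 to 5233855), which reads the phosphoinositide mark and recruits ATG16L1, had signals of 9.82 with No.10-3, 9.74 and 9.73 with 0.5 and 2 µM C-30, against 10.15 with vehicle. Its differences were -0.33, -0.41 and -0.42. The remaining 2 genes of this role were within background on every array. ATG2B, the paralogue of ATG2A, differed by -0.23, -0.15 and 0.00. WIPI1, a relative of WIPI2, had signals of 5.60 with No.10-3, 6.01 and 4.69 with 0.5 and 2 µM C-30, against 5.55 with vehicle, and was lower at 2 than at 0.5 µM of C-30, with a difference of -1.32.

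**Figure D3:**
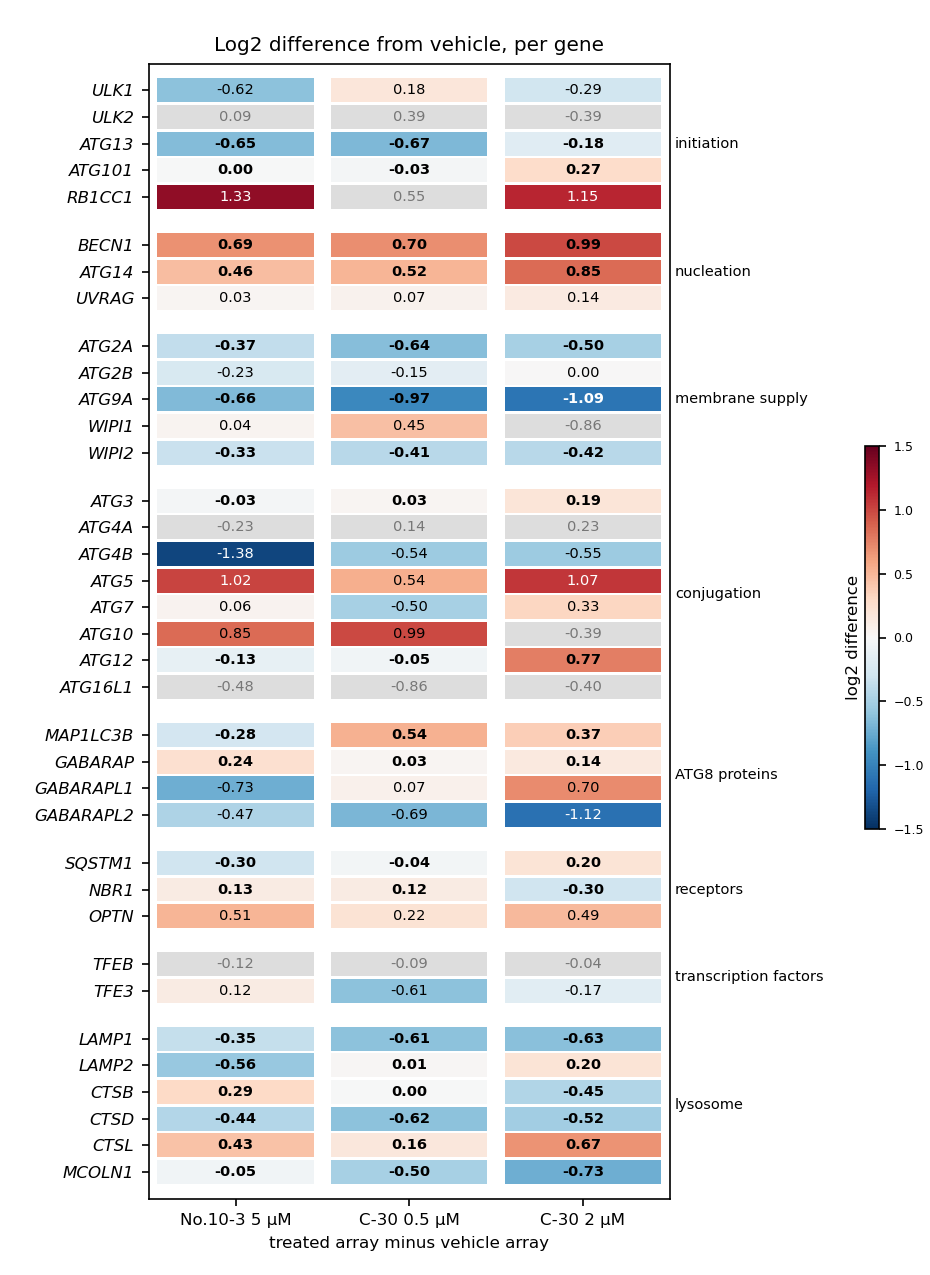
Log2 difference of each treated array from the vehicle array (columns) for the 36 genes (rows, grouped by role), with the value in each cell. Grey cells are under the floor, and bold values belong to genes above background on all 4 arrays; BECN1 and ATG14 are higher and ATG9A, ATG2A and WIPI2 lower in every column.

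The conjugation genes differed in direction. ATG12 (chromosome 5, 115828200 to 115841565), a ubiquitin-like protein joined to ATG5, had signals of 7.84 with No.10-3, 7.92 and 8.74 with 0.5 and 2 µM C-30, against 7.97 with vehicle. It was high on the C-30 2 µM array alone, by 0.77 over vehicle and by 0.82 over the lower dose. ATG3, the enzyme that passes LC3 to lipid, had signals of 7.82 with No.10-3, 7.88 and 8.04 with 0.5 and 2 µM C-30, against 7.85 with vehicle. It differed from vehicle by at most 0.19. ATG7, the activating enzyme of both conjugation branches, had signals of 7.42 with No.10-3, 6.87 and 7.69 with 0.5 and 2 µM C-30, against 7.37 with vehicle. It was lower, at -0.50 with C-30 at 0.5 µM, where it fell within background, and higher at 2 than at 0.5 µM by 0.83.

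ATG4B (chromosome 2, 241637693 to 241673857), the protease that trims LC3 for conjugation, had signals of 6.19 with No.10-3, 7.02 and 7.02 with 0.5 and 2 µM C-30, against 7.56 with vehicle. Vehicle was the only array above background, and the differences were -1.38, -0.54 and -0.55. ATG5 (chromosome 6, 106184476 to 106325760) had signals of 6.08 with No.10-3, 5.61 and 6.14 with 0.5 and 2 µM C-30, against 5.07 with vehicle. All 4 signals were within background and the vehicle array was the lowest, so the differences of 1.02, 0.54 and 1.07 are inexact, and 1 probe set per gene does not show which splice forms were present. ATG10, the enzyme that joins ATG12 to ATG5, was within background at 5.63 with No.10-3, 5.77 and 4.38 with 0.5 and 2 µM C-30, against 4.78 with vehicle. Its difference between the C-30 doses was -1.39. ATG4A lay between 4.97 and 5.43 and ATG16L1, which targets the conjugation complex to the membrane, between 4.23 and 5.10, and neither was counted.

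The LC3 and GABARAP genes differed in their patterns. MAP1LC3B (chromosome 16, 87392336 to 87404774), the gene of the LC3 protein used as the usual marker of autophagosomes, had signals of 8.78 with No.10-3, 9.60 and 9.43 with 0.5 and 2 µM C-30, against 9.06 with vehicle. It was lowest with No.10-3 and highest with C-30 at 0.5 µM, with differences of -0.28, 0.54 and 0.37. GABARAPL1 (chromosome 12, 10212877 to 10223128) had signals of 6.77 with No.10-3, 7.58 and 8.20 with 0.5 and 2 µM C-30, against 7.50 with vehicle. The No.10-3 array was the lowest, within background, and the C-30 2 µM array the highest, with differences of -0.73, 0.07 and 0.70. Between the C-30 doses it differed by 0.63. GABARAP (chromosome 17, 7240008 to 7242449) had signals of 10.47 with No.10-3, 10.26 and 10.38 with 0.5 and 2 µM C-30, against 10.23 with vehicle. It differed from vehicle by at most 0.24. GABARAPL2 was within background on all 4 arrays at 6.34 with No.10-3, 6.12 and 5.69 with 0.5 and 2 µM C-30, against 6.81 with vehicle. It was lower on each treated array, at -0.47, -0.69 and -1.12. MAP1LC3B and GABARAPL1 have near-identical copies in the genome, so their probe sets may read more than 1 gene.

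Of the cargo receptor genes, OPTN was higher on each treated array and SQSTM1 and NBR1 lay on both sides of vehicle. SQSTM1 (chromosome 5, 179806393 to 179838078), the gene of p62, had signals of 14.80 with No.10-3, 15.06 and 15.30 with 0.5 and 2 µM C-30, against 15.10 with vehicle. The 4 arrays lay close together, with differences of -0.30, -0.04 and 0.20. NBR1, a relative of p62 that also binds ubiquitinated cargo, had signals of 9.06 with No.10-3, 9.06 and 8.63 with 0.5 and 2 µM C-30, against 8.93 with vehicle. Its differences were 0.13, 0.12 and -0.30. OPTN, the gene of optineurin, a receptor for damaged mitochondria and bacteria, had signals of 7.81 with No.10-3, 7.52 and 7.78 with 0.5 and 2 µM C-30, against 7.30 with vehicle. Its vehicle signal was at the background level and its differences were 0.51, 0.22 and 0.49. Of the transcription factors, TFEB lay between 2.89 and 3.01, under the floor on every array. TFE3 had signals of 7.58 with No.10-3, 6.85 and 7.29 with 0.5 and 2 µM C-30, against 7.45 with vehicle, and was lowest with C-30 at 0.5 µM, at -0.61.

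The lysosome genes LAMP1, CTSD and MCOLN1 were lower with C-30, and CTSL was higher. All 6 were above background on all 4 arrays. LAMP1 (chromosome 13, 113297239 to 113323672), an abundant glycoprotein of the lysosomal membrane, had signals of 11.12 with No.10-3, 10.86 and 10.84 with 0.5 and 2 µM C-30, against 11.47 with vehicle. Vehicle was the highest and the C-30 arrays were the lowest, with differences of -0.35, -0.61 and -0.63. CTSD (chromosome 11, 1752755 to 1763927), the aspartic protease cathepsin D, had signals of 11.22 with No.10-3, 11.04 and 11.14 with 0.5 and 2 µM C-30, against 11.66 with vehicle. It was lower on each treated array, at -0.44, -0.62 and -0.52. MCOLN1 (chromosome 19, 7522624 to 7534009), the calcium channel of the lysosome, had signals of 10.15 with No.10-3, 9.70 and 9.48 with 0.5 and 2 µM C-30, against 10.21 with vehicle. The No.10-3 array was close to vehicle at -0.05, and the C-30 arrays were lower, at -0.50 and -0.73.

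CTSL (chromosome 9, 87726119 to 87731469), the cysteine protease cathepsin L, had signals of 12.22 with No.10-3, 11.95 and 12.46 with 0.5 and 2 µM C-30, against 11.79 with vehicle. Vehicle was the lowest array, and the differences were 0.43, 0.16 and 0.67. CTSB, cathepsin B, had signals of 12.46 with No.10-3, 12.16 and 11.72 with 0.5 and 2 µM C-30, against 12.17 with vehicle. It was highest with No.10-3, by 0.29, and lowest with C-30 at 2 µM, at -0.45. LAMP2 (chromosome X, 120426148 to 120469349), the partner of LAMP1 needed for fusion and for chaperone-mediated autophagy, had signals of 7.86 with No.10-3, 8.44 and 8.62 with 0.5 and 2 µM C-30, against 8.42 with vehicle. It was lower with No.10-3, at -0.56, and differed by 0.01 and 0.20 with C-30. Over the 6 lysosome genes the medians were -0.20 with No.10-3, -0.25 with 0.5 µM C-30 and -0.48 with 2 µM. The medians of all genes were 0.05, -0.04 and -0.06. Each time 2 of the 6 were higher and 4 lower, where 45.9%, 53.1% and 53.6% of all genes past the floor were lower. Of the 4, CTSB at 0.5 µM was close to 0 and changed sign with the scaling of the arrays.

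Lysosomal genes are known for a palindromic element bound by TFEB and TFE3, whose core is the E-box CACGTG. Promoter windows of 300 bases, from 250 before to 50 after each gene start, were read from RefSeq (GRCh38.p14) for 32 of the 36 members, with RB1CC1, UVRAG, LAMP2 and CTSB not matched. The search on both strands for TCACGTG, which contains CACGTG, found it in 5 of these 32 members, LAMP1, MCOLN1, CTSD, ATG3 and ATG14, each in 1 window. Some genes have several windows, and 5 of 40 member windows held it, where 3.71% of all 35116 windows did. Counted by gene, 5.82% of 14250 measured genes had it in at least 1 window. CACGTG itself was in the same 5 members, in 7.26% of windows and in 10.8% of genes. A further word that was searched, TGATGCAA, was in 0 of the 40 member windows and in 0.87% of all windows. Of these 5 members, LAMP1, MCOLN1 and CTSD were lower with C-30 and ATG14 was higher at both doses. ATG3 differed by 0.03 at 0.5 µM and 0.19 at 2 µM. The promoters of all but ATG3 are shown. Capitals mark TCACGTG or its reverse complement, and each sequence runs 5′ to 3′ on the strand of its gene.
LAMP1 (chr13:113297029-113297244, plus strand): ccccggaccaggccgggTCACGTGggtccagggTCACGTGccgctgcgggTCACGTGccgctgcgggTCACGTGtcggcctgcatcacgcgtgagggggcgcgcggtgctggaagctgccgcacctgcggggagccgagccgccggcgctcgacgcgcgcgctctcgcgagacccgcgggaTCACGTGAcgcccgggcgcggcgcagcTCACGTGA
MCOLN1 (chr19:7522524-7522623, plus strand): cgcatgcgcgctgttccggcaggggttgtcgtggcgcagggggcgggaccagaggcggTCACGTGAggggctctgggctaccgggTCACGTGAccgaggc
CTSD (chr11:1763928-1764027, minus strand): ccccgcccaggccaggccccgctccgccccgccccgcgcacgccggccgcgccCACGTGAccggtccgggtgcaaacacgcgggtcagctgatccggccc
ATG14 (chr14:55411831-55411930, minus strand): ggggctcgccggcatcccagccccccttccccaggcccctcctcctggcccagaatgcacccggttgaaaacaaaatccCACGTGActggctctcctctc

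The LAMP1 stretch holds 6 copies, the MCOLN1 stretch 2, and those of CTSD and ATG14 hold 1 each. Among lysosome members with a window, 3 held the word and 1, CTSL, did not, which is too few to compare. A link between the word and the direction of a difference was not tested. Beyond the members, 11 genes of the lysosomal hydrolase, membrane and v-ATPase lists had the word in a window and passed the floor with C-30 at 2 µM, with 3 higher, 8 lower and a median of -0.50, and 33 had no such word, with 16 higher, 17 lower and a median of -0.10. At 0.5 µM the medians were 0.0021 over 10 genes (5 higher, 5 lower) and -0.08 over 33 (15 higher, 18 lower). With No.10-3 they were -0.18 (2 higher, 8 lower) and 0.03 (19 higher, 14 lower) over the same numbers. Over all genes past the floor with C-30 at 2 µM, the median was -0.12 for 593 genes with the word (258 higher, 335 lower). It was -0.05 for 7171 without it (3330 higher, 3841 lower). With No.10-3 the medians were 0.042 with the word (585 genes, 318 higher, 267 lower) and 0.049 without it (7121 genes, 3851 higher, 3269 lower). With C-30 at 0.5 µM they were -0.027 (584 genes, 280 higher, 304 lower) and -0.039 (7162 genes, 3347 higher, 3814 lower). The word was chosen with the members' differences known, and a match is a description of the letters in the window.

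The 2 C-30 arrays can be compared without the vehicle array. At 2 against 0.5 µM, 20 of 32 members past the floor were higher (46.6% of 9282 genes) and 12 were lower (53.4%), with a median of 0.15 against -0.03 over all genes. No member was 2-fold higher (1.39% of all genes), and ATG10 and WIPI1 were 2-fold lower (2.18%), both within background. At 1.5-fold RB1CC1, ATG7, ATG12 and GABARAPL1 were higher (7.89%), and the same 2 genes were lower (9.92%). ATG10 and WIPI1 lay below the middle 95% of all genes, -0.96 to 0.86. Of the 19 members above background on all 4 arrays, 8 were lower than vehicle at both doses, which share 1 vehicle array. Over all genes past the floor 53.1% were lower at 0.5 µM and 53.6% at 2 µM, and the share lower at both was not computed. CTSB counts among the 8 with a difference of -0.0026 at 0.5 µM, which changed sign with the scaling. ATG9A, LAMP1, WIPI2, CTSD and ATG2A differed between the doses by -0.12, -0.01, -0.01, 0.10 and 0.14, MCOLN1 and CTSB by -0.23 and -0.44, and ATG13 by 0.49; the LAMP1 and WIPI2 values changed sign with the scaling.

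**Figure D4:**
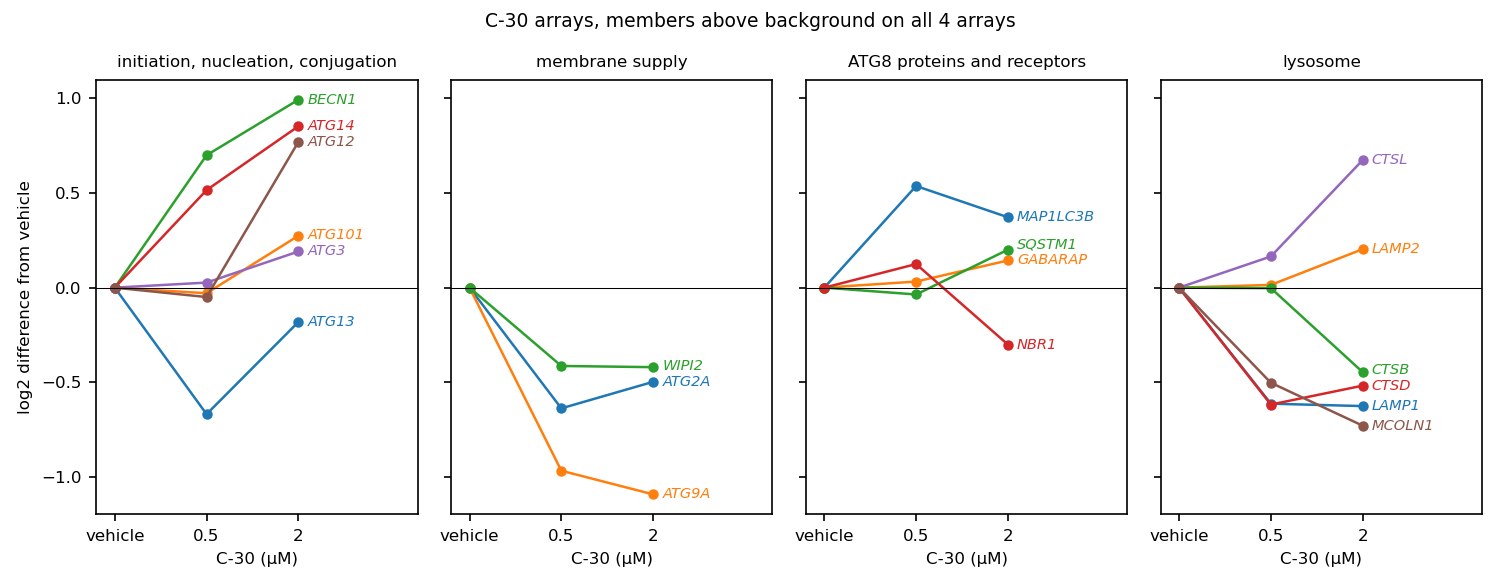
Log2 difference from vehicle (y axis) on the C-30 arrays (x axis: vehicle, 0.5 and 2 µM, equally spaced) for the 19 members above background on all 4 arrays, in 4 panels by role, each point 1 array. BECN1, ATG14, ATG12 and CTSL are highest at 2 µM, at 0.99, 0.85, 0.77 and 0.67, and ATG9A is lowest, at -1.09.

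Other genes of the pathway were read from 7 lists without the members. Among 13 measured cargo receptor genes, 12 passed the floor, of which 7 were higher with No.10-3 (54.0% of all genes), 8 with 0.5 µM C-30 (46.9%) and 9 with 2 µM (46.4%). Their medians were 0.19, 0.28 and 0.36, against 0.05, -0.04 and -0.06 over all genes. TAX1BP1, a receptor for ubiquitinated cargo, had signals of 7.79 with No.10-3, 7.59 and 8.09 with 0.5 and 2 µM C-30, against 6.62 with vehicle. Its differences were 1.17, 0.97 and 1.47, from a vehicle signal within background. It was the 1 of 12 receptor genes 2-fold higher with No.10-3 (4.36% of all genes) and with 2 µM C-30 (4.67%). CALCOCO2, the gene of the receptor NDP52, had signals of 10.19 with No.10-3 and 10.15 and 10.36 with C-30, against 9.46 with vehicle. All 3 treated arrays were above vehicle, by 0.73, 0.69 and 0.90. WDFY3, the gene of the aggregate adaptor ALFY, had signals of 6.18, 6.83 and 7.24 on the treated arrays, against 6.28 with vehicle, and was above background with C-30 at 2 µM alone.

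Among 25 measured other autophagy genes, 17 passed the floor, with medians of -0.12, -0.18 and 0.06. EPG5, a tether for fusion with the lysosome, had signals of 8.34 with No.10-3 and 8.27 and 7.71 with C-30, against 8.89 with vehicle. ATG4D, a relative of ATG4B, had signals of 8.42, 8.30 and 7.80, against 8.83 with vehicle. Both passed 2-fold with C-30 at 2 µM, at -1.17 and -1.02, and were above background on all 4 arrays. They were the 2 of 17 genes that were 2-fold lower there (6.15% of all genes), and 0 were 2-fold higher (4.67%). By any amount 9 of the 17 were higher and 8 lower at that dose. BNIP3L, a receptor of mitochondrial autophagy, had signals of 10.45 with No.10-3 and 11.46 and 11.55 with C-30, against 10.56 with vehicle. Its differences were -0.12, 0.90 and 0.99, so it was higher on the C-30 arrays alone. BNIP3L was kept in this list, so the cargo receptor counts and medians above leave it out.

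Of 35 measured lysosomal hydrolase and activator genes, 25 passed the floor with No.10-3 and at the lower dose of C-30, and 26 at the higher, with medians of -0.08, -0.16 and -0.03. At 2 µM of C-30 none was 2-fold higher (4.67% of all genes) and 3 of 26 were 2-fold lower (6.15% of all genes). ACP2, lysosomal acid phosphatase, had signals of 8.01 with No.10-3 and 7.29 and 6.47 with C-30, against 8.25 with vehicle. The C-30 2 µM array was the lowest, at -1.77, and was within background. CTSZ, cathepsin Z, had signals of 11.54 with No.10-3 and 11.22 and 10.71 with C-30, against 11.75 with vehicle. It was lower, at -0.20, -0.53 and -1.04, with signals above background on all 4 arrays. GALNS, a sulphatase that acts on keratan sulphate, had signals of 6.98 with No.10-3, 6.49 and 6.37 with C-30, against 7.49 with vehicle; it was lower, at -1.12 at 2 µM and above background with vehicle alone.

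The 23 measured lysosomal membrane genes, of which 18 passed the floor, had medians of 0.07, -0.12 and -0.16. Of the 18, 1 was 2-fold higher with No.10-3 (4.36% of all genes) and 1 was 2-fold lower with C-30 at 2 µM (6.15%). TMEM63A was lower, at -1.01 with C-30 at 2 µM, where its signal was within background, SLC17A5, the sialic acid exporter, was higher by 1.15 with No.10-3 within background, and MFSD8 was higher by 0.82, 0.96 and 0.57 from a vehicle signal within background. The 16 v-ATPase genes past the floor, which encode the proton pump, had medians of 0.25, 0.05 and -0.04. ATP6AP1, an accessory subunit, had signals of 7.84 with No.10-3 and 7.60 and 7.22 with C-30, against 8.58 with vehicle. ATP6AP2, the other accessory subunit, had signals of 9.18, 8.96 and 8.78 on the treated arrays, against 7.99 with vehicle. ATP6AP1 was thus lower, at -0.74, -0.97 and -1.35, and ATP6AP2 higher, by 1.19, 0.96 and 0.79. ATP6V1C1 was highest with C-30 at 0.5 µM, by 1.14, and differed by -1.08 between the doses. Of the 16, 1 was 2-fold higher with No.10-3 (4.36% of all genes) and 1 with C-30 at 0.5 µM (3.40%). At 2 µM 1 was 2-fold lower (6.15%), and between the doses 1 was 2-fold higher (1.39%) and 1 lower (2.18%).

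Of 33 measured upstream regulators, 24, 24 and 23 passed the floor, with medians of 0.08, -0.06 and -0.16. At 2 µM of C-30, 1 of the 23, FNIP1, was 2-fold higher (4.67% of all genes), and 2, TSC2 and MLST8, were 2-fold lower (6.15% of all genes). TSC2, which restrains the growth kinase complex mTORC1, had signals of 7.20 with No.10-3 and 7.20 and 6.29 with C-30, against 7.70 with vehicle. It was lower, at -1.41 with C-30 at 2 µM, within background there. MLST8, a subunit of mTORC1, had signals of 8.69, 8.27 and 8.02, against 9.23 with vehicle, and was lower, at -0.54, -0.97 and -1.21. LAMTOR3, part of the complex that holds mTORC1 at the lysosome, was higher by 1.06 with No.10-3 and 1.21 with 0.5 µM C-30, within background, and under the floor in the comparison at 2 µM. It was the 1 of 24 regulators 2-fold higher with No.10-3 (4.36% of all genes) and with 0.5 µM C-30 (3.40%). The lysosome fusion list had 7, 8 and 7 genes past the floor and medians of 0.22, -0.02 and -0.04. In it VPS18 was higher with No.10-3 by 0.65, VPS39 lower with C-30 at 0.5 µM, at -1.05 within background, and SNAPIN at most 0.60 from vehicle. VPS39 was the 1 of 8 genes of this list 2-fold lower with C-30 at 0.5 µM (2.77% of all genes).

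**Figure D5:**
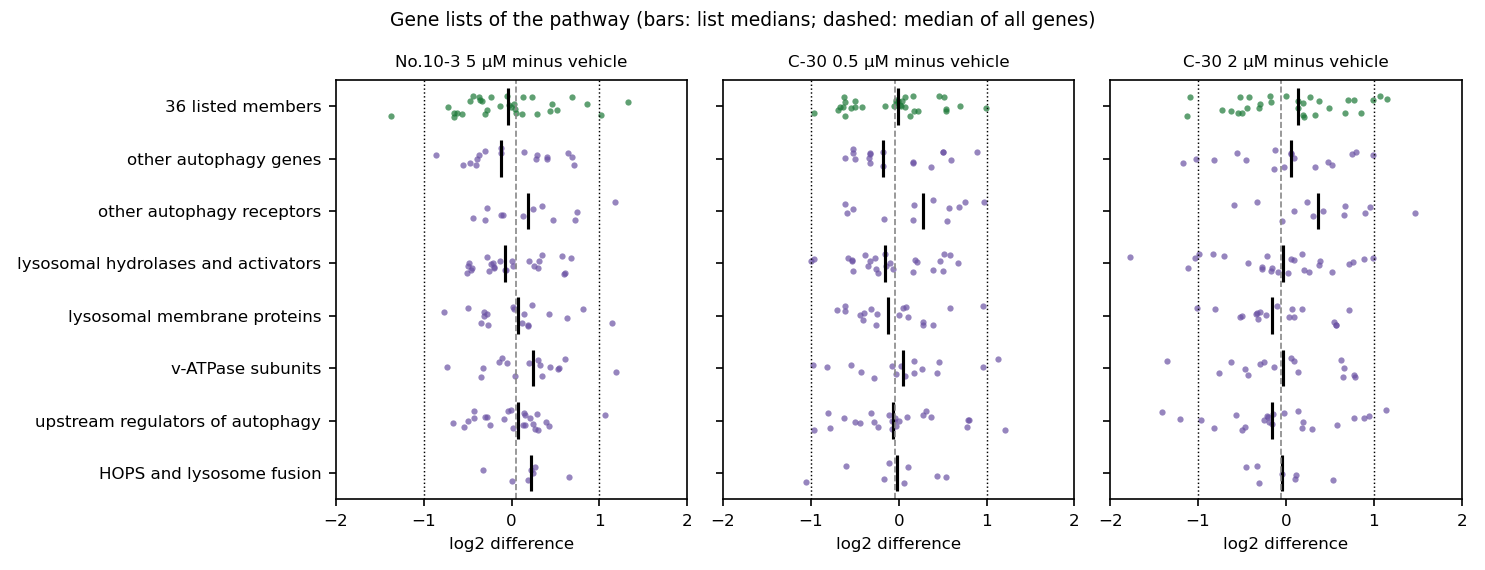
Log2 differences from vehicle (x axis) of genes past the floor in the 36-gene set and the 7 other lists of the pathway (rows), 1 panel per treated array and 1 point per gene. Black bars are list medians, the dashed line is the median of all genes and dotted lines mark 2-fold; the cargo receptor list has medians of 0.19, 0.28 and 0.36.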

How the data were processed

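Biotin-labelled total RNA of each of 4 conditions was read on 1 array, per the labels' protocols. The submitters' processing notes name RMA and Affymetrix Expression Console 1.3.0 for the deposited values; RMA usually means background correction, quantile normalization and a summary per probe set. The deposited values are taken as log2 signals from their range and the usual output of RMA. Named probe sets reached 19.66, above a scanner's log2 range, so the log base or an earlier rescaling is uncertain, and folds hold only on this scale. The sources used here do not give a genome build.

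The platform annotation gave 1 symbol for 17709 of 24351 probe sets, several for 0 and none for 6642; all 17709 were matched to current symbols by Entrez identifier, giving 17687 genes (mean over probe sets for the 20 genes with several). The per-sample tables and the series' table differed by at most 5e-05. A log2 difference was taken per gene, without a test. The floor, thresholds of 2-fold and 1.5-fold and the spread measures are given in the text; robust SD is 1.4826 times the median absolute deviation. The number of arrays limits precision. Named genes were all 36 members and, per list, the 3 genes past the floor with the largest difference from vehicle. Members, lists and promoter words were chosen with earlier results of these data known. Counting was run on simulated data with differences well past the threshold, which checks the code only and says nothing of the error of these arrays. Python 3.11.15, numpy 2.4.6, pandas 2.3.3, statsmodels 0.14.6 and matplotlib 3.10.9 were used.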

Additional observations from a re-analysis of the deposited data

How the results depend on the processing

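No paired analysis was possible because each condition has 1 array. The settings tried were a threshold of 1.5-fold, no floor, floors at the 75th percentile (7.90) and at the background level, quantile normalization, a lowess correction on signal (fraction 0.3), centring of each array, the brightest probe set and the series' table. Of 104 recomputed counts and medians of the members, 81 stayed within 1.5 times the count or within the ERCC spread of the median. At 1.5-fold, 4 members were higher and 5 lower with No.10-3, 2 and 7 at 0.5 µM of C-30, 7 and 4 at 2 µM, and 4 were higher between the C-30 doses. With a floor at the 75th percentile, 0 members were 2-fold higher and 0 lower with No.10-3, 0 higher and 1 lower with C-30 at 2 µM and 0 lower between doses, and the No.10-3 median was -0.20. With the floor at the background level, 0 were higher with No.10-3, 0 higher and 1 lower with C-30 at 2 µM and 0 lower between doses. Both higher floors test fewer genes. Quantile normalization left 1 member higher with No.10-3, without ATG5. At 2 µM of C-30, quantile normalization and the lowess correction each gave 1 lower member, GABARAPL2, without ATG9A, and 3 higher, with BECN1 gained. Centring gave 1 higher with No.10-3 (median -0.19), without ATG5, raised the higher count at 0.5 µM of C-30 from 0 to 1 by adding ATG10 (1.02, within background), gave 3 higher at 2 µM with BECN1 added (1.06), and moved the median of all genes with No.10-3 by -0.11; the cause was not tested. That centring, quantile normalization and the lowess correction left 59.1%, 67.0% and 70.6% of all genes past 2-fold with No.10-3 on the higher side, against 76.7% as deposited. With C-30 at 2 µM the shares were 55.1%, 52.3% and 52.1%, against 43.2%. None of 720 recomputed single differences of members moved by more than the ERCC spread, and no member past 2-fold changed sign. The brightest probe set and the series' table are part of both the 104 and the 720 but could not test them. Each member has 1 probe set, and the deposited tables differed by at most 5e-05, so agreement under these settings was fixed in advance. The 6 members above background on some arrays and the 11 above it on none have inexact differences.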
